A study of Mus musculus with 7 samples.

Results

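The 42 genes described here encode proteins of the chemical synapse. They were taken by symbol from a list of synaptic vesicle, active zone, adhesion and scaffold genes and make up 42 of the 32285 genes counted in every library, and all 42 were found once in the annotation. By role, 15 serve the synaptic vesicle and its fusion, 5 build the active zone, 11 are adhesion proteins and 11 are scaffold or signalling proteins of the postsynaptic side. At a synapse, vesicle proteins and SNARE proteins bring about the release of transmitter, which active zone proteins confine to a small patch of membrane. Neurexins and their partners on the other cell, among them neuroligins and LRRTMs, hold the 2 membranes in register, and scaffolds of the DLG, SHANK and HOMER families gather receptors and kinases beneath the postsynaptic membrane. The ventricular-subventricular zone (V-SVZ) lines the lateral ventricles, where neural stem cells (NSCs) give rise to transit amplifying progenitors (TAPs) and these to neuroblasts that migrate to the olfactory bulb before they form synapses.

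Single cells of the V-SVZ were profiled in 7 droplet libraries, in which the tissue of 2 to 3 mice, 31 to 33 days old, was combined. The 3 control libraries came from mice labelled Prdmflox/flox, which carry no Cre. The 3 Prdm16 cKO libraries came from hGFAP-Cre+/-; Prdm16flox/flox mice, in which the human GFAP promoter drives Cre in radial glia and the gene is removed from these cells and their descendants, neurons and glia included. The 1 DKO library came from hGFAP-Cre+/-; Prdm16flox/flox; Vcam1flox/flox mice, and it has no replicate. The floxed Prdm16 alleles are shared by all 3 groups, and control mice thus do not show what Cre does by itself. Since the mice of a library were pooled, the spread between libraries is a spread between pools, and p-values measure only that.

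Of 65049 barcodes, 43346 were kept, 21952 of them from control, 14499 from cKO and 6895 from DKO libraries. The kept cells of a library held 23117331 to 105002786 unique molecular identifiers (UMIs, each counting 1 captured mRNA molecule), with a median of 4959.5 to 8317.5 per cell. Clusters were named from markers that include none of the 42 genes, and neither these genes nor a wider list of 98 other synaptic genes entered the clustering. NSC-like cells (5547) held Gfap and Thbs4 and also the astrocyte markers, and the other named types were astrocyte-like (2171), TAP-like (4970), neuroblast-like (8084), neuron-like (2130), OPC-like (oligodendrocyte precursors, 905), oligodendrocyte-like (4679), ependymal-like (2785), endothelial-like (2746), mural-like (1127) and microglia-like cells (1075). A cluster of 444 cells led by Gpr17 and Bmp4 is called the Gpr17-led cluster. Its summed level of 5 OPC markers was 1320 to 1991 UMI CPM by library, against 3784 to 4472 in OPC-like cells, and that of 5 oligodendrocyte markers was 4427 to 7320, against 378.4 to 932.0 in OPC-like and 12580 to 15790 in oligodendrocyte-like cells. A cluster of 474 cells led by Sst, Npy and Nos1, genes of interneurons, passed no rule for a name and is called the Sst-led cluster, and 3 further clusters with no name were not used. Prdm16 in NSC-like cells stood at 63.1 to 73.3 UMI CPM in control libraries and at 45.9 to 54.8 in cKO libraries, a check that rests on 3′ ends of a gene of which Cre removes 1 part. In astrocyte-like cells it stood at 44.2 to 52.1 in control and 47.5 to 62.2 in cKO libraries, which overlapped, so that the labels are not checked by this gene there. Pairs of libraries shared 2 to 70 cell barcodes, at most 1.48% of the smaller library, and 731 cells carried a shared barcode.

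Levels are given as UMI CPM, the UMIs of a gene relative to the summed UMIs of all cells of 1 type in 1 library, on the usual CPM scale. A UMI marks the 3′ end of a molecule, so that this scale does not grow with the length of the transcript. In a sum over cells, fewer expressing cells and less RNA per cell cannot be told apart. Values over the 7 libraries are given as mean ± SD, or as lowest, median and highest library. Cell types come from clusters of the same cells and their levels are described and not tested, whereas genotypes were compared over libraries.

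The start regions of the genes were examined for a letter string that neuronal genes are known to carry. REST is a repressor that holds neuronal genes off in cells that are not neurons, and it binds an element whose left part reads TTCAGCACC. RefSeq windows of GRCm38.p6, from 250 bases before to 50 bases after a start, were at hand for 31 of the 42 genes, and TTCAGCACC was searched on both strands. It was found in 3 of the 31, Syn1, Unc13a and Nlgn1, and in 0.433% of the 27025 genes with a window. The windows of these 3 genes are shown with the match in capitals, beside that of Syt11, whose windows hold no match, because Syn1 and Unc13a stood highest in neuron-like cells, Nlgn1 in OPC-like cells and Syt11 in oligodendrocyte-like cells. All are written 5′ to 3′ on the strand of the gene. The Syn1 and Unc13a windows hold the annotated start of the gene, while those of Nlgn1 and Syt11 lie at a start inside it, since the annotated Nlgn1 gene runs over chr3:25426215-26332460 and Syt11 over chr3:88744700-88775164.
Syn1, chrX:20920869-20921168, minus strand: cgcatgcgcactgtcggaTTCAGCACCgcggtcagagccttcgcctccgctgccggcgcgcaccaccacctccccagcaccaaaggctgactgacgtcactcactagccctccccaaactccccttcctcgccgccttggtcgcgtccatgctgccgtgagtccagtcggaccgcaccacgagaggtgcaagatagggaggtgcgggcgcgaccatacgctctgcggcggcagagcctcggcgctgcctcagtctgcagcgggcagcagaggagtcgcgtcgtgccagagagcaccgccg
Unc13a, chr8:71671708-71672007, minus strand: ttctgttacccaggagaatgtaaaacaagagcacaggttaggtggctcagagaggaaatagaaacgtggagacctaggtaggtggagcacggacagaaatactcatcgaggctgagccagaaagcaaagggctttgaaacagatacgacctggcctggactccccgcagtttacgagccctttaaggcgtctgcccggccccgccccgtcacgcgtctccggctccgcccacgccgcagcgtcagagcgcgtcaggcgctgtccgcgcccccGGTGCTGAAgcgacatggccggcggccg
Nlgn1, chr3:26153937-26154236, minus strand: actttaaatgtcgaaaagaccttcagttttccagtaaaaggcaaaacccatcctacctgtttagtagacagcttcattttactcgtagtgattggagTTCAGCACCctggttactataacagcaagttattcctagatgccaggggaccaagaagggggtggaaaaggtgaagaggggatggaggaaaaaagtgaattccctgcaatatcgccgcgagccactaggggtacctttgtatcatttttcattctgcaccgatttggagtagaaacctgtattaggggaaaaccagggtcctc
Syt11, chr3:88772550-88772849, minus strand: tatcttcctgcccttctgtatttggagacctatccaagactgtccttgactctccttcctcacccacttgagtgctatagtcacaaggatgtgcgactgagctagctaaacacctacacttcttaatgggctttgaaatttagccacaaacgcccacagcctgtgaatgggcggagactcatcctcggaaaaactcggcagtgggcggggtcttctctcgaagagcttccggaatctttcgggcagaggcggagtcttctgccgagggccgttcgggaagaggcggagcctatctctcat
Counted from the start base as 0, the match lies at -232 to -224 in Syn1, at -153 to -145 in Nlgn1 and, on the opposite strand as GGTGCTGAA, at 22 to 30 in Unc13a. A match of 9 letters is a description of these windows, and binding of REST was not measured.

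Neuron-like cells held the highest mean level of 23 of the 42 genes. OPC-like cells led for 6, the Sst-led cluster for 5, the Gpr17-led cluster for 4, and astrocyte-like, ependymal-like, neuroblast-like and oligodendrocyte-like cells for 1 each. For 16 genes the 7 libraries of the leading type did not overlap those of the type that followed. The share of all genes with such a gap was not computed, so that this count is a description only. The summed level of all 42 genes, as a mean over all 7 libraries, was 12610 CPM in neuron-like cells, 7127 in the Sst-led cluster and 4786 in OPC-like cells. It was 4497 in the Gpr17-led cluster and 3898 in oligodendrocyte-like cells, of which Syt11 made up 2616, against 653.8 in endothelial-like cells. By genotype the Sst-led cluster stood at 9845 in control, 4963 in cKO and 5463 in DKO libraries, and neuron-like cells at 12420, 13240 and 11270. After each cell was thinned to 2000 UMIs, a neuron-like cell held a UMI of 14.0 of the genes on average, and an OPC-like cell of 7.02. A neuroblast-like cell held 4.22, an NSC-like cell 3.52, an oligodendrocyte-like cell 3.15 and a TAP-like cell 2.50. Endothelial-like, mural-like and microglia-like cells held 1.15, 1.43 and 1.25. These types form no synapse, but their counts include Rab3a, with a UMI in 20.4% of thinned mural-like cells, and Cadm1, in 17.5% of microglia-like cells. Thinning left out 270 of 2130 neuron-like and 1240 of 2785 ependymal-like cells, the largest number of any type.

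**Figure D1:**
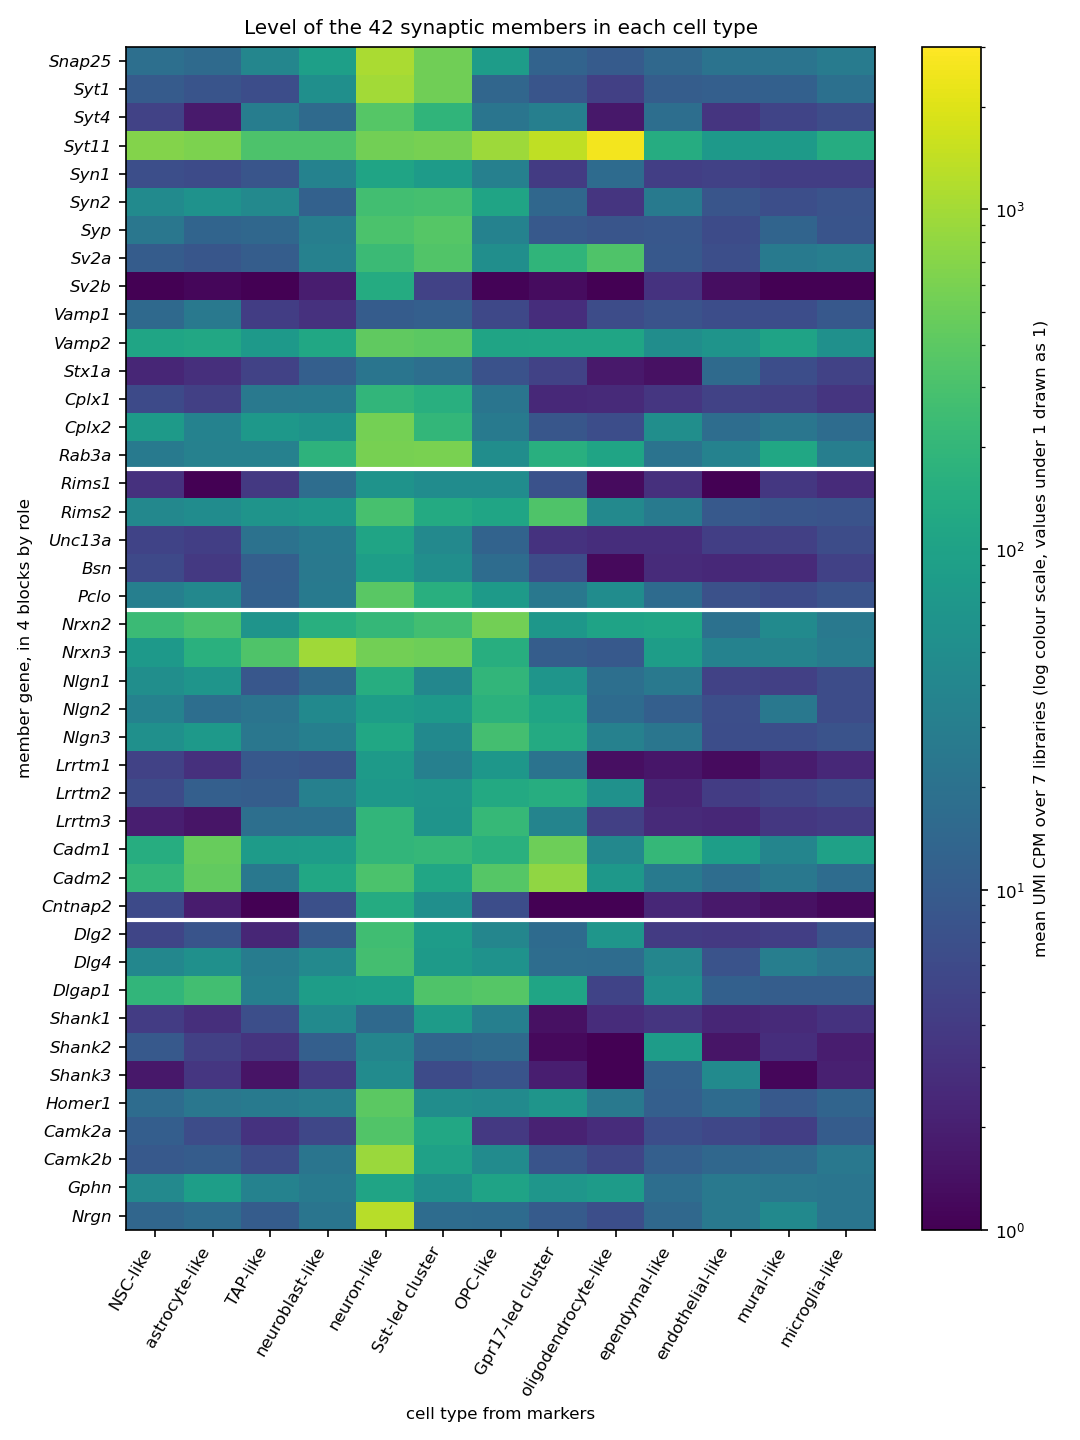
Mean UMI CPM over 7 libraries (colour, log scale, values under 1 drawn as 1) of the 42 genes (rows, in 4 blocks by role) in 13 cell types (columns). The column of neuron-like cells is brightest for 23 genes, while Syt11 peaks in oligodendrocyte-like cells at 2616 CPM, Nrxn3 in neuroblast-like cells at 946 CPM and the neuroligins in OPC-like cells.

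Among the vesicle and SNARE genes, 9 of 15 were highest in neuron-like cells in the mean over all 7 libraries. In control libraries the sum of the 15 was 5844 to 6406 CPM in the Sst-led cluster and 5587 to 6296 in neuron-like cells. In cKO libraries it was 1565 to 3553 and 5441 to 6409, and in the DKO library 3030 and 5067. Snap25, the plasma membrane SNARE of transmitter release, ran from 825.9 over a median of 1037 to 1368 CPM there, followed by the Sst-led cluster at 150 to 875.2, and the ranges overlapped. Syt1, the calcium sensor of fast release, measured 1001 ± 104 CPM (SD, n = 7) in neuron-like cells and 54.3 ± 23.2 in neuroblast-like cells. At 2000 UMIs per cell, Snap25 was seen in 75% of neuron-like, 16.5% of neuroblast-like and 7.58% of TAP-like cells, against 5.16% of endothelial-like and 6.08% of microglia-like cells. NSC-like cells, with 4.36%, and astrocyte-like cells, with 3.63%, lay below the last 2 types, and no expression of Snap25 is read from them. Without thinning these shares were 88.6%, 36.7%, 40.8%, 12.1%, 11.9%, 14.2% and 12.8%, at median depths of 13100 UMIs in neuron-like, 16200 in TAP-like and 4300 in endothelial-like cells.

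Close relatives within the vesicle group were highest in different cells. Syt11, a synaptotagmin that does not bind calcium, reached 2337 to 3007 CPM in oligodendrocyte-like cells, above all 7 libraries of the Gpr17-led cluster at 1258 to 1632, and stood at 934.1 ± 40.0 in OPC-like and 680.9 ± 72.8 in NSC-like cells. It was seen in 98.8% of thinned oligodendrocyte-like cells and in 11% of endothelial-like cells. Syt4, a synaptotagmin of neuroendocrine vesicles, was instead highest in neuron-like cells at 358.7 ± 59.5 CPM and lowest in oligodendrocyte-like cells at 1.67. Sv2b, a glycoprotein of the vesicle membrane, was the gene with the widest gap between the leading type and the next, 139.2 ± 16.6 CPM in neuron-like cells and 4.81 in the Sst-led cluster, a ratio of 28.9. Its relative Sv2a was at 343.7 ± 168.4 in the Sst-led cluster, 329.1 ± 20.5 in oligodendrocyte-like and 231.1 ± 38.1 in neuron-like cells, where the Sst-led range spanned both others while the 7 oligodendrocyte-like libraries (299.7 to 352.4) lay above the 7 neuron-like ones (189.7 to 298.6).

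Vamp2, the main SNARE of synaptic vesicles, stood at 419.5 ± 85.9 CPM in neuron-like cells and between 51.4 and 120.9 in every type other than neuron-like cells and the Sst-led cluster. Vamp1, a SNARE that takes its place in some neurons, led in astrocyte-like cells at 25.2 ± 9.24, where the range overlapped that of NSC-like cells at 15.7 ± 4.71. Syn2, Syp and Rab3a, which tether, coat and dock vesicles, were at 286.9, 360.2 and 601.3 CPM in the Sst-led cluster and at 261.7, 309.6 and 582.2 in neuron-like cells, with overlapping ranges for all 3 genes. Syn1, a synapsin, and the complexins Cplx1 and Cplx2, which clamp the SNARE complex, were highest in neuron-like cells at 107.4 ± 20.6, 194.6 ± 30.8 and 558.1 ± 139.3 CPM. Stx1a, the syntaxin of the plasma membrane, was low in every type, with 22.5 ± 6.17 in neuron-like and 16.1 ± 4.12 in endothelial-like cells.

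Of the active zone genes, 4 of 5 led in neuron-like cells, and 1 of these, Unc13a, did so with no overlap with the next type. Unc13a primes vesicles for release and measured 76.1 to 178.2 CPM in neuron-like cells against 23.5 to 67.6 in the Sst-led cluster. Pclo and Bsn, the giant scaffolds piccolo and bassoon, stood at 390.0 ± 70.8 and 88.9 ± 30.1 in neuron-like cells. Rims1, which links vesicles to calcium channels, was at 60.4 ± 10.3 in neuron-like cells, 48.5 ± 30.5 in the Sst-led cluster and 48.4 ± 6.53 in OPC-like cells, with overlapping ranges. Rims2 was highest in the Gpr17-led cluster at 334.2 ± 48.3 CPM, where its range overlapped that of neuron-like cells at 287.5 ± 42.9.

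Of the 11 adhesion genes, 5 were highest in OPC-like cells, 3 in the Gpr17-led cluster, 2 in neuron-like cells and 1 in neuroblast-like cells. The neuroligins, postsynaptic partners of the neurexins, led in OPC-like cells. Nlgn3 ran from 232.8 over a median of 285.4 to 329.2 CPM, above the Gpr17-led cluster at 122.1 to 162.8, while Nlgn2, the neuroligin of inhibitory synapses, was at 172.9 ± 14.5 against 110.0 ± 18.2 with no overlap. Nlgn1, the neuroligin of excitatory synapses, was at 193.5 ± 33.2 in OPC-like and 148.9 ± 15.4 in neuron-like cells, and the ranges overlapped. Nlgn3 was seen in 41.4% of thinned OPC-like cells, 18.6% of neuron-like and 0.974% of endothelial-like cells.

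Both neurexin genes among the 42 had a leader of their own. Nrxn2 was highest in OPC-like cells at 537.2 ± 58.3 CPM, above astrocyte-like cells at 299.3 ± 56.3 with no overlap, and Nrxn3 was highest in neuroblast-like cells. Nrxn3 (chr12:88722876-90334935, plus strand, GRCm38) ran from 789.4 over 930.1 to 1147 CPM in neuroblast-like cells and from 441.4 over 496.0 to 697.3 in neuron-like cells, with no overlap. It was seen in 80.4% of thinned neuroblast-like, 60.9% of neuron-like and 40.9% of TAP-like cells, against 3.99% of endothelial-like cells. Among the LRRTM genes, which encode postsynaptic neurexin partners, Lrrtm1 was at 78.8 ± 11.7 CPM in neuron-like and 69.2 ± 11.7 in OPC-like cells, Lrrtm2 at 146.3 ± 26.1 in the Gpr17-led cluster and 128.5 ± 23.5 in OPC-like cells, and Lrrtm3 at 212.7 ± 28.1 in OPC-like and 197.0 ± 31.6 in neuron-like cells. None of these 3 pairs was free of overlap. Cadm1 and Cadm2, immunoglobulin adhesion proteins of many cells, were at 507.2 ± 63.3 and 784.6 ± 50.1 in the Gpr17-led cluster and at 469.7 ± 80.0 and 444.6 ± 65.3 in astrocyte-like cells, and of these only Cadm2 showed no overlap. Cntnap2, a neurexin relative of the axon, was at 136.9 ± 15.3 in neuron-like cells and under 10 CPM in every other type but the Sst-led cluster.

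Of the scaffold and signalling genes, 8 of 11 were highest in neuron-like cells. Nrgn, a calmodulin-binding protein of dendrites, was at 1280 ± 195 CPM there and at 44.8 ± 15.6 in mural-like cells, the type that followed. Its level in the Sst-led cluster was 17.2. The sum of 11 neuron markers was 10720 CPM in neuron-like, 398.3 in mural-like and 151.2 in endothelial-like cells and 479.4 in the Sst-led cluster. The part of this sum in the Nrgn values was not tested. Camk2a and Camk2b, the kinases of postsynaptic plasticity, were at 341.3 ± 90.1 and 907.5 ± 274.0 in neuron-like cells, and Homer1, which links receptors to SHANK proteins, at 394.3 ± 140.1, all 3 above the next type with no overlap. Dlg4 and Dlg2, the scaffolds PSD-95 and PSD-93, were at 271.5 ± 58.0 and 258.7 ± 57.7 in neuron-like cells, also with no overlap. Dlgap1, which binds both DLG and SHANK proteins, was highest in OPC-like cells at 358.7 ± 39.9, next to the Sst-led cluster at 332.5 ± 158.9 and astrocyte-like cells at 262.4 ± 20.9. Gphn, the scaffold of inhibitory synapses, was nearly level between neuron-like and OPC-like cells at 105.7 ± 9.57 and 104.8 ± 16.5 CPM.

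The 3 SHANK genes, scaffolds of the excitatory synapse, each followed a pattern of its own. Shank2 was highest in ependymal-like cells at 83.4 ± 18.9 CPM, with 60.2 to 110.5 over libraries, against 28.7 to 66.1 in neuron-like cells, and the ranges overlapped. Shank2 was seen in 14.7% of thinned ependymal-like cells, 7.04% of neuron-like and 0.390% of endothelial-like cells. Shank3 was at 48.1 ± 22.3 in neuron-like and 46.3 ± 23.1 in endothelial-like cells, and at 12 or less in every other type. Shank1 was at 79.8 ± 28.9 in the Sst-led cluster, 46.2 ± 13.7 in neuroblast-like and 15.4 ± 4.24 in neuron-like cells.

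**Figure D2:**
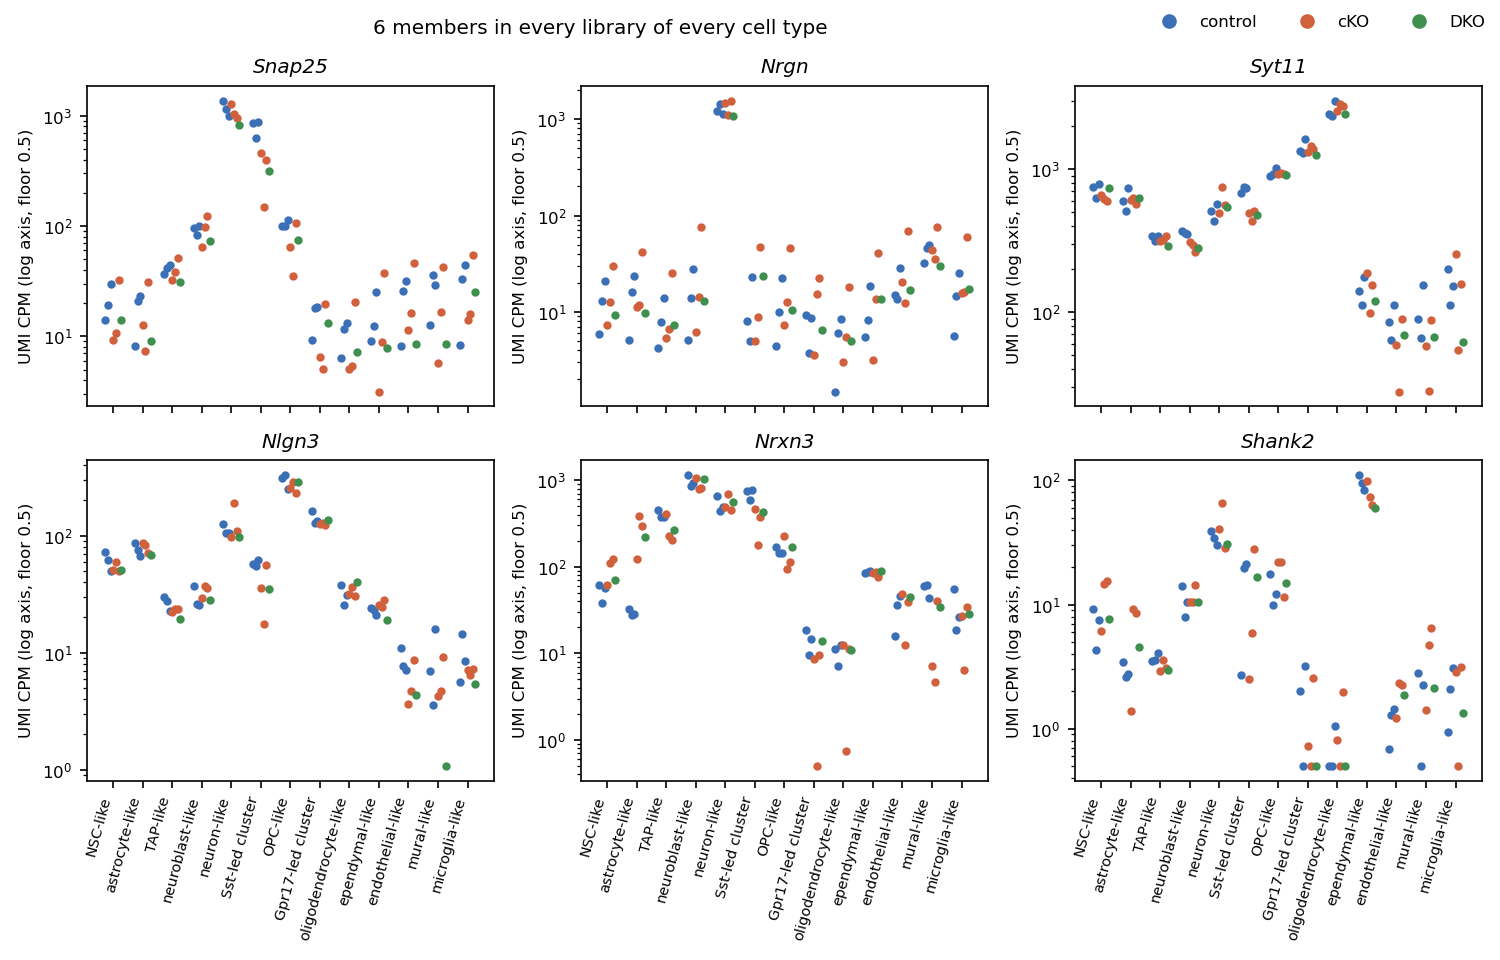
UMI CPM (log axis, values under 0.5 drawn at 0.5) of 6 genes in each of 7 libraries (points, coloured by genotype) across 13 cell types. Snap25 and Nrgn peak in neuron-like cells, Syt11 in oligodendrocyte-like, Nlgn3 in OPC-like, Nrxn3 in neuroblast-like and Shank2 in ependymal-like cells.

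Neuron-like cells were set apart from neuroblast-like cells by more of the genes than any other neighbouring pair compared. Ranges of the 7 libraries were compared between neighbouring types for all genes with a mean of at least 5 CPM in either type. Between neuroblast-like and neuron-like cells 40 of 42 genes showed no overlap, against 50.2% of all 11740 genes, and 38 of them were higher in neuron-like cells (31% of all genes) and 2, Nrxn3 and Shank1, in neuroblast-like cells (19.1%). Nrxn2 and Dlgap1 overlapped. Between TAP-like and neuroblast-like cells 19 of 39 genes showed no overlap (37.9% of all genes), 18 higher in neuroblast-like cells (17.4%) and 1, Syt4, in TAP-like cells (20.5%). The 18 included Snap25, Syt1, Rab3a, Nrxn3, Shank1 and Cntnap2.

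Between NSC-like and neuroblast-like cells 24 of 40 genes showed no overlap (50.3% of all genes). Of these, 17 were higher in neuroblast-like cells (22.4%), and 7 in NSC-like cells (27.9%): Syt11, Syn2, Vamp1, Nlgn1, Nlgn3, Cadm2 and Dlgap1. Dlgap1 stood at 196.6 CPM in NSC-like, 31.3 in TAP-like and 85.9 in neuroblast-like cells, and Cadm2 at 197.8, 24.8 and 117.1, so that TAP-like cells were the lowest of the 3 for both. Between NSC-like and astrocyte-like cells 7 of 33 genes showed no overlap (18.9% of all genes). Cplx2 and Nlgn2 were higher in NSC-like cells (12.5%), and Cadm1, Cadm2, Dlgap1, Homer1 and Gphn in astrocyte-like cells (6.45%). With at most 5% mitochondrial counts, 5 of 34 showed no overlap (14% of all genes), and Cplx2, Nlgn2 and Homer1 overlapped. Without cells holding neuron marker UMIs it was also 5 of 34 (13.6%), and Cplx2, Homer1 and Gphn overlapped. In both, Cntnap2 was higher in NSC-like and Cadm1, Cadm2 and Dlgap1 in astrocyte-like cells. Between OPC-like and oligodendrocyte-like cells 33 of 40 genes showed no overlap (55.8%), 29 higher in OPC-like cells (44.5%) and 4, Syt11, Sv2a, Rab3a and Dlg2, in oligodendrocyte-like cells (11.3%).

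The comparison of cKO with control libraries asked, for each cell type, which of the genes depend on Prdm16 in these mice. Counts were summed per library and type and tested with edgeR's quasi-likelihood test over all genes of the type, and a gene was called at a Benjamini-Hochberg adjusted p under 0.05. Over the 13 types 480 gene and type pairs could be tested, with 21 to 42 of the genes per type, and 1 was called. It was Nrxn3 in astrocyte-like cells, where 1 of 35 genes was called against 1.28% of all 12066 genes tested.

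In astrocyte-like cells Nrxn3 stood at 32.5, 27.6 and 28.3 CPM in control libraries 1 to 3, at 122.6, 388.0 and 295.8 in cKO libraries 1 to 3, and at 222.6 in the DKO library. The groups did not overlap, and cKO library 1 was the lowest of its group. Nrxn3 rose by 3.17 on the log2 scale with an SE of 0.39 (edgeR adjusted p = 0.0105, higher in 3 of 3 cKO libraries). The exact two-sided permutation test over 3 against 3 libraries gave p = 0.1, the smallest it can give. At 2000 UMIs per cell, Nrxn3 was seen in 5.26% to 6.48% of astrocyte-like cells of control libraries, in 16.8%, 44.8% and 47.1% of those of cKO libraries 1 to 3 and in 28.8% of those of the DKO library. In endothelial-like cells the share was 0.833% to 6.49% over the 7 libraries. Without thinning, the shares in astrocyte-like cells were 14.4%, 23.3% and 19.0% in control libraries, 33.7%, 86.4% and 87.1% in cKO libraries and 49.2% in the DKO library, at median depths of 5260 to 11800 UMIs.

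Neuroblasts are the cells richest in Nrxn3, and the summed level of 6 neuroblast markers in astrocyte-like cells, none of them at 0, was 114.1, 121.8 and 119.6 CPM in control, 76.9, 59.5 and 81.6 in cKO libraries and 129.6 in the DKO library. The summed level of 11 neuron markers was 121.3 to 238.6 in control and 141.2 to 311.7 in cKO libraries. Other sums were higher in cKO libraries: that of 5 endothelial markers was 5.13, 17.5 and 20.4 in control, 27.0, 50.3 and 46.9 in cKO and 36.5 in DKO, and that of 5 astrocyte markers 4010 to 4421 in control, 4955 to 5129 in cKO and 4210 in DKO. The sum of 5 oligodendrocyte markers was 217.0, 286.5 and 321.9 in control, 253.0, 515.1 and 512.3 in cKO and 432.3 in DKO. The part of these cells in the change of Nrxn3 was not tested. Within the libraries whose headers name Cell Ranger 6.0.1, control 1 and 2 and cKO 1 and 2, the change was 3.08 (adjusted p = 0.261), and in the version 6.1.1 libraries control 3 stood at 28.3 and cKO 3 at 295.8. The call was lost without control library 1, 2 or 3 (log2 change of 3.20, 3.12 and 3.19, adjusted p = 0.103, 0.12 and 0.0843) and without cells holding at least 2 UMIs of neuron markers (3.16, adjusted p = 0.0665). Over 19 alternatives the change ran from 2.87 to 3.52, and 14 kept the call.

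In the other types of the lineage edgeR did not call Nrxn3 over all libraries, while DESeq2, and edgeR without cKO library 1, called it in NSC-like cells, and the latter also in TAP-like cells. In NSC-like cells it stood at 62.0, 38.6 and 57.5 CPM in control and at 61.4, 111.0 and 122.6 in cKO libraries, which overlapped, with a log2 change of 0.99 and an SE of 0.30 (edgeR adjusted p = 0.186), and at 70.5 in the DKO library. In TAP-like cells the control libraries stood at 446.7, 376.7 and 373.8 and the cKO libraries at 408.8, 227.3 and 203.4, with a change of -0.45 (adjusted p = 0.718). In neuroblast-like cells the change was -0.07 with an SE of 0.20 (adjusted p = 0.915). In the Sst-led cluster and in mural-like cells Nrxn3 was lower in every cKO than in every control library, at 589.5 to 776.0 CPM in control and 179.5 to 467.2 in cKO, and at 43.7 to 62.4 and 4.72 to 40.7 (log2 change of -0.97 and -1.27, edgeR adjusted p = 0.138 and 1.0). The summed level of 6 neuroblast markers in mural-like cells did not overlap either and was also lower in cKO libraries. It was 512.7, 680.9 and 336.1 CPM in control, 98.4, 28.3 and 309.9 in cKO and 240.2 in the DKO library. Nrxn3 was seen in 3.08% of thinned mural-like and 3.99% of thinned endothelial-like cells. The part of the neuroblast marker sum in the mural-like values was not tested. The difference of the changes between cell types was not tested.

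**Figure D3:**
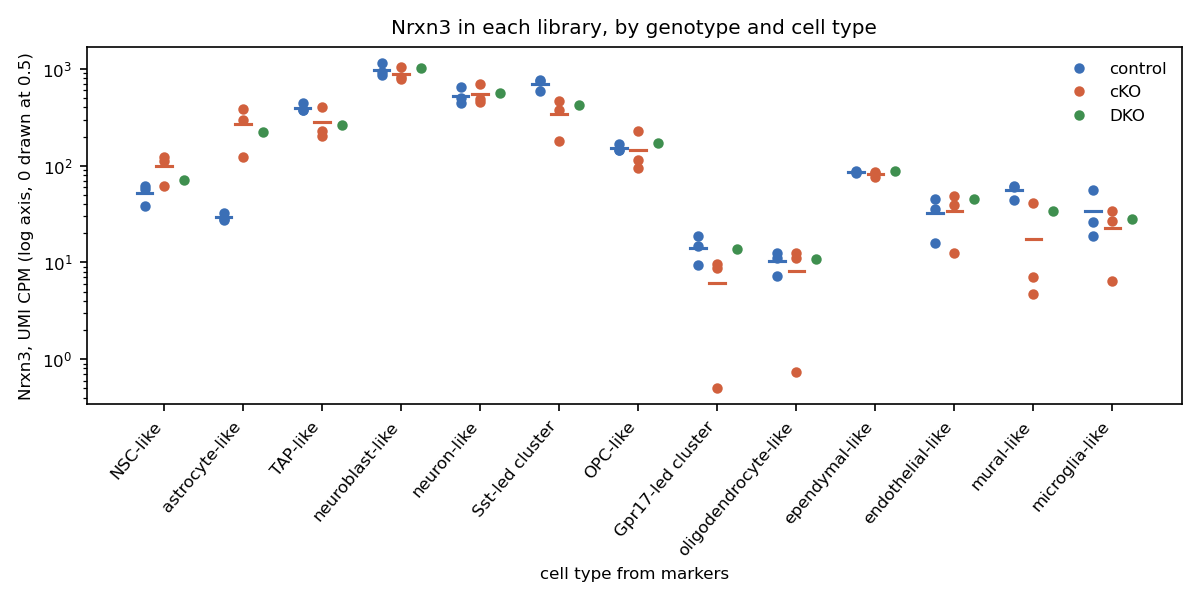
Nrxn3 in UMI CPM (log axis, 0 drawn at 0.5) in each library (points) of control, cKO and DKO mice across 13 cell types, with lines at the means of the 3 control and the 3 cKO libraries. In astrocyte-like cells the 3 cKO libraries lie at 122.6 to 388.0 and the 3 control libraries at 27.6 to 32.5 CPM. The groups overlap in NSC-like, neuroblast-like and neuron-like cells. The cKO libraries lie below the control libraries in the Sst-led cluster and in mural-like cells. In mural-like cells the neuroblast marker sum was also lower in cKO libraries, and its part was not tested.

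The wider list placed Nrxn3 beside other synaptic genes. In astrocyte-like cells 3 of the 70 genes of that list that were tested were called, against 1.28% of all genes, and all 3 rose: Rab27b by 3.03 (SE 0.639, edgeR adjusted p = 0.0228) and Rab3b by 2.36 (SE 0.501, adjusted p = 0.0377), small GTPases of secretory vesicles, and Il1rapl1, a synaptic adhesion receptor, by 1.38 (SE 0.285, adjusted p = 0.0274). With 1 library left out 0 to 8 of the list were called, 0 without control library 2, cKO library 2 or cKO library 3, 1 without control library 1 or 3 and 8 without cKO library 1, and in the Cell Ranger 6.0.1 libraries 0. In the same order, the calls over all genes were 38, 49 and 68, then 84 and 48, then 545, and 27 in the 6.0.1 libraries. With all 7 libraries they were 155. In 11 of the other types 0 genes of the list were called by edgeR, although an unadjusted p under 0.05 was found for 18 of 87 in NSC-like, 17 of 92 in TAP-like and 16 of 87 in neuroblast-like cells, 31 of 85 in the Sst-led cluster and at most 4 in each of the other 7 of these types. Of all genes, 13.7%, 7.03%, 8.74% and 19% had such a p in these 4. DESeq2 called 9 in NSC-like cells, 3 each in TAP-like cells, neuroblast-like cells and the Sst-led cluster, and 0 in those 7 types, among 541, 118, 62 and 129 of all genes in these 4.

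Other members in astrocyte-like cells did not pass the test, although 9 of 35, Nrxn3 included, had an unadjusted p under 0.05 (10.1% of all genes). Control and cKO libraries failed to overlap for 6 of 35 (14.0% of all genes), with Vamp1 and Nrxn3 higher (7.28%) and Cplx1, Nrxn2, Sv2a and Gphn lower (6.74%) in cKO libraries. Vamp1 was at 17.1, 22.3 and 11.7 CPM in control and 25.2, 39.3 and 30.6 in cKO libraries, with 30.4 in the DKO library (log2 change of 0.91, SE 0.24, edgeR adjusted p = 0.0757). It was called in 4 of 19 alternatives, 1 of them without cKO library 1 (1.04, adjusted p = 0.0183). Nrxn2 was at 364.9, 383.3 and 307.5 in control, 273.6, 275.4 and 229.1 in cKO and 261.7 in DKO (-0.43, adjusted p = 0.371). Cplx1 and Sv2a, both under 15 CPM in every library, had changes of -1.16 and -0.75 (adjusted p = 0.375 and 0.518).

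In NSC-like cells 0 of 42 genes were called, as were 0% of the 14577 genes tested. Of the 42, 8 had an unadjusted p under 0.05 (13.7% of all genes), and DESeq2 called 4, Rims1, Nrxn3, Cplx2 and Camk2a, among 541 of all genes. Libraries failed to overlap for 8 of 42 (17.3% of all genes), for Vamp1, Rims1 and Lrrtm1 with cKO higher (6.79%) and for Camk2a, Cntnap2, Dlg4, Rab3a and Gphn with cKO lower (10.5%). Rims1 was at 0.856, 0.862 and 1.38 CPM in control and 2.19, 6.07 and 7.26 in cKO libraries, with 3.15 in the DKO library (log2 change of 2.33, SE 0.53, edgeR adjusted p = 0.0871). All of these are low levels, against 60.4 in neuron-like cells.

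Camk2a in NSC-like cells was at 12.1, 20.9 and 17.7 CPM in control and 6.58, 2.86 and 8.39 in cKO libraries, with 7.66 in DKO (-1.32, SE 0.35, edgeR adjusted p = 0.129). Cntnap2 was at 7.27, 9.26 and 8.07 in control, 4.72, 2.14 and 3.88 in cKO and 7.45 in DKO (-1.04, adjusted p = 0.165). Vamp1 was at 12.6, 13.8 and 10.8 in control, 16.0, 25 and 17.9 in cKO and 13.5 in DKO (0.74, adjusted p = 0.138). Lrrtm1 stayed between 4.09 and 6.07 CPM in these 6 libraries (0.44, adjusted p = 0.571), and its change was -0.14 without cells holding neuron marker UMIs. The neuron marker sum in NSC-like cells was 140.3 to 247.2 in control and 137.5 to 303.1 in cKO libraries, while the sums of 5 astrocyte and 6 neuroblast markers did not overlap between control and cKO. The astrocyte sum was 1397, 1423 and 1402 in control, 1556, 2114 and 2213 in cKO libraries and 1510 in DKO, and the neuroblast sum 624.1, 474.5 and 669.6 in control, 422.5, 199.6 and 254.8 in cKO and 509.3 in DKO. Sums of 5 TAP, 7 mural and 6 microglia markers did not overlap either and were lower in cKO. They were 254.7 to 347.2, 116.7 to 144.7 and 48.0 to 62.0 in control, and 167.5 to 253.2, 87.9 to 113 and 38.9 to 44.5 in cKO. The part of these sums in the values was not tested. Without cKO library 1 edgeR called 7 of the 42 in NSC-like cells, Rims1, Cntnap2, Syn2, Vamp1, Shank2, Nrxn3 and Cplx2, while it called 1625 genes in all.

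In TAP-like cells 0 of 42 genes were called (0% of all genes), 3 had an unadjusted p under 0.05 (7.03% of all genes) and DESeq2 called 1, Syn2, among 118 of all genes. Libraries failed to overlap for 2 of 42 (11.2% of all genes), both lower in cKO (6.78%). Lrrtm3 was at 27.5, 23.3 and 23.4 CPM in control, 21.7, 12.5 and 8.55 in cKO and 13.4 in DKO (-0.70, edgeR adjusted p = 0.648). With 1 library left out, its change ran from -1.17 to -0.435. Syt4 was at 38.7, 35.0 and 35.4 in control, 28.9, 21.0 and 27.2 in cKO and 24.6 in DKO (-0.42, adjusted p = 0.581). The NSC marker sum in these cells was 490.2, 382.7 and 513.7 in control, 634.2, 686.9 and 1009 in cKO and 610.1 in DKO, with no overlap of control and cKO. The neuroblast marker sum was 5002, 4968 and 4301 in control, 4310, 4027 and 3153 in cKO and 3692 in DKO, and the part of both sums in these values was not tested. Without cKO library 1, edgeR called 4 of 42 in these cells, Syn2, Lrrtm3, Nrxn3 and Cplx2, among 291 of all genes.

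In neuroblast-like cells 0 of 42 genes were called (0.0291% of all genes), 6 had an unadjusted p under 0.05 (8.74% of all genes) and DESeq2 called 0, among 62 of all genes. The median log2 change of the 42 was 0.22, against 0.02 for all genes tested, and 33 of 42 were above 0. Without cKO library 3 the median was 0.06 and 22 of 42 were above 0, at resolution 0.3 it was 0.11, in the Cell Ranger 6.0.1 libraries 0.11, and with library totals in place of TMM scaling 28 of 42 were above 0. The neuron marker sum in these cells was 107.1, 153.8 and 262.4 CPM in control, 120.8, 292.7 and 512.1 in cKO libraries and 233.7 in the DKO library, and its part in these changes was not tested. Libraries failed to overlap for 3 of 42 (13.1% of all genes), with Cntnap2 higher (5.09%) and Syt4 and Syt11 lower (8%) in cKO. Cntnap2 was at 3.85, 3.63 and 4.07 CPM in control, 4.08, 10.4 and 15.2 in cKO and 7.92 in DKO (1.42, SE 0.42, edgeR adjusted p = 0.442), so that cKO library 1 lay next to the control libraries. Syt11 was at 370.3, 360.0 and 351.6 in control, 310.0, 293.5 and 264.7 in cKO and 282.6 in DKO (-0.26, adjusted p = 0.648), and Syt4 at 18.3 to 18.5 in control, 10.8 to 16.6 in cKO and 13.6 in DKO (-0.32, adjusted p = 0.658). For Syt4 the change ran from -0.487 to -0.187 with 1 library left out. Without cKO library 1, edgeR called 5 of 42 here, Cntnap2, Cadm1, Lrrtm3, Syt1 and Shank3, among 383 of all genes.

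In neuron-like cells, where most of these genes are highest, 0 of 42 were called (0.0233% of all genes), 1 had an unadjusted p under 0.05 (2.17% of all genes) and DESeq2 called 0, among 3 of all genes. The changes ran from -0.49 to 0.63 on the log2 scale. Libraries failed to overlap for 2 of 42 (7.48% of all genes), Sv2b higher (1.93%) and Stx1a lower (5.56%) in cKO. Sv2b was at 135.9, 129.6 and 134.7 CPM in control, 142.6, 167.2 and 150 in cKO and 114.4 in DKO (0.25, SE 0.20, edgeR adjusted p = 1.0). Stx1a was at 26.0, 35.1 and 20.7 in control, 18.0, 19.3 and 17.9 in cKO and 20.5 in DKO (-0.49, SE 0.25, adjusted p = 1.0). Its change ran from -0.662 to -0.263 with 1 library left out.

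**Figure D4:**
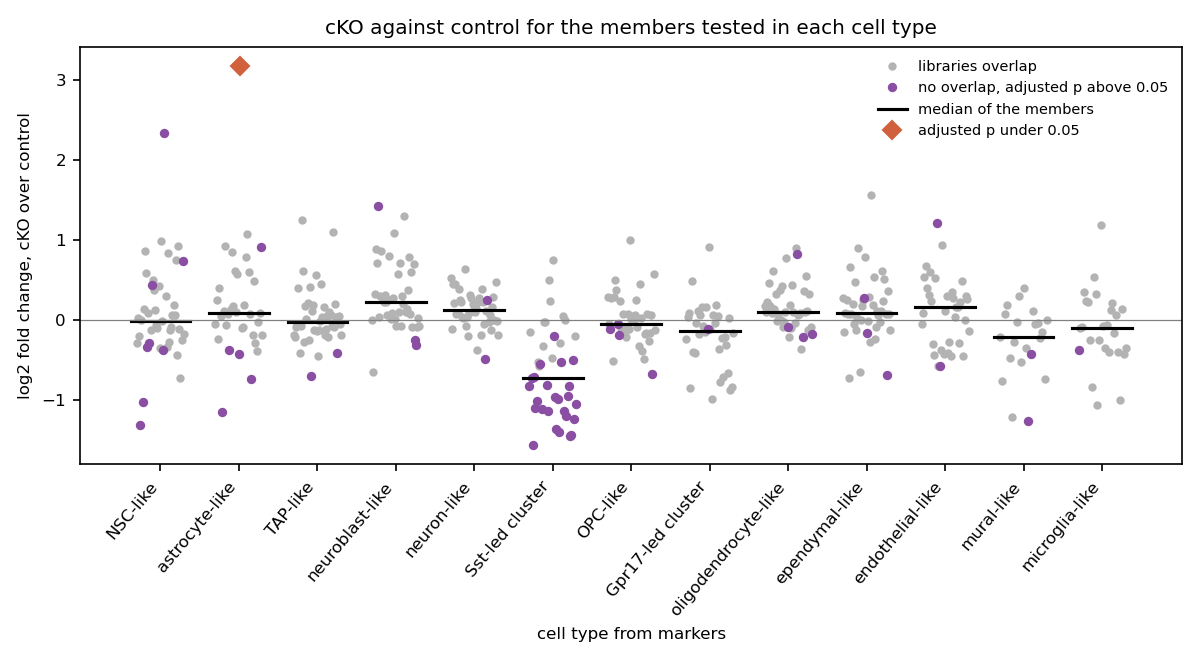
Log2 fold change, cKO over control libraries, of each gene tested (points) in 13 cell types, with a black line at their median. Grey points mark genes whose libraries overlap, purple points those that do not, and the diamond is the 1 called gene, Nrxn3 in astrocyte-like cells at 3.17. Medians lie between -0.22 and 0.22 in every type but the Sst-led cluster, where the median is -0.73. Without cKO library 3 the medians were -0.64, -0.60 and -0.52 in endothelial-like, microglia-like and mural-like cells and -0.95 in the Sst-led cluster, and without control library 3 they were 0.36 in endothelial-like and 0.31 in microglia-like cells.

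The Sst-led cluster held 69, 15 and 78 cells in control libraries, 60, 35 and 130 in cKO libraries and 87 in the DKO library. Cells with a UMI of Neurod1, Eomes, Tbr1 or Neurog2, factors of glutamatergic precursors, made up 14.5%, 33.3% and 19.2% of it in control, 50%, 65.7% and 40.8% in cKO and 40.2% in DKO, at median depths of 3553 to 12200 UMIs. At 2000 UMIs per cell, which left out 32 of 69 cells of control library 1 and at most 23 of any other library, the shares were 21.6%, 33.3% and 20.3% in control, 29.8%, 44.1% and 25.2% in cKO and 31% in DKO, and control and cKO overlapped. In endothelial-like cells the thinned share was at most 0.431%. Cells with at least 5 UMIs of Sst, Npy and Nos1 made up 10.1%, 33.3% and 29.5% in control, 8.33%, 2.86% and 8.46% in cKO and 10.3% in DKO. Thinned, these shares were 16.2%, 20% and 23.0% in control, 7.02%, 0% and 9.35% in cKO and 4.23% in DKO, and control did not overlap with the others. The 0% stands for 0 of 34 cells, which allows a share of up to 8.82%. The summed level of the 42 genes was 9910, 9368 and 10260 CPM in control, 6088, 2930 and 5871 in cKO and 5463 in DKO, with no overlap of control and cKO.

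In this cluster 0 of 39 genes were called (1.19% of all genes), 19 had an unadjusted p under 0.05 (19% of all genes), and DESeq2 called 3, Pclo, Syt1 and Syp, among 129 of all genes. Libraries failed to overlap for 25 of 39, against 26.1% of all genes, and all 25 were lower in cKO (16.1%). The median change was -0.73, against 0.01 for all 8602 genes. Pclo was at 229.7, 163.5 and 306.7 CPM in control and 90.9, 47.1 and 115.6 in cKO libraries (-1.36, SE 0.34, edgeR adjusted p = 0.0738). Syt1 was at 710.6, 842.1 and 919.2 in control, 356.0, 88.3 and 399.7 in cKO and 417.6 in DKO (-1.45, adjusted p = 0.133), and Syp at 507.9, 787.6 and 455.5 in control and 272.7, 55.9 and 257.2 in cKO (-1.45, adjusted p = 0.153). The cKO library 2, with the highest share of cells positive for glutamatergic factors, was the lowest for all 3. Without those cells, an alternative chosen after seeing the data, the median was -0.48 and 0 of the members were called, among 22 of all genes. Without cKO library 2 the median was -0.44. With at most 5% mitochondrial counts edgeR called 16 of the members among 781 of all genes, and with no filter on low counts 15 among 766, against 102 of all genes with neither change. The neuroblast marker sum was 4469, 3616 and 2814 CPM in control, 5649, 8040 and 4541 in cKO and 5277 in DKO, with no overlap of control and cKO and the highest level in cKO library 2. The sum of 5 OPC markers, 2 of them at 0, did not overlap either. It was low, at 2.70, 19.8 and 8.27 CPM in control, 32.8, 53.0 and 67.8 in cKO and 37.7 in DKO. The part of the cells' makeup in these values was not tested.

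**Figure D5:**
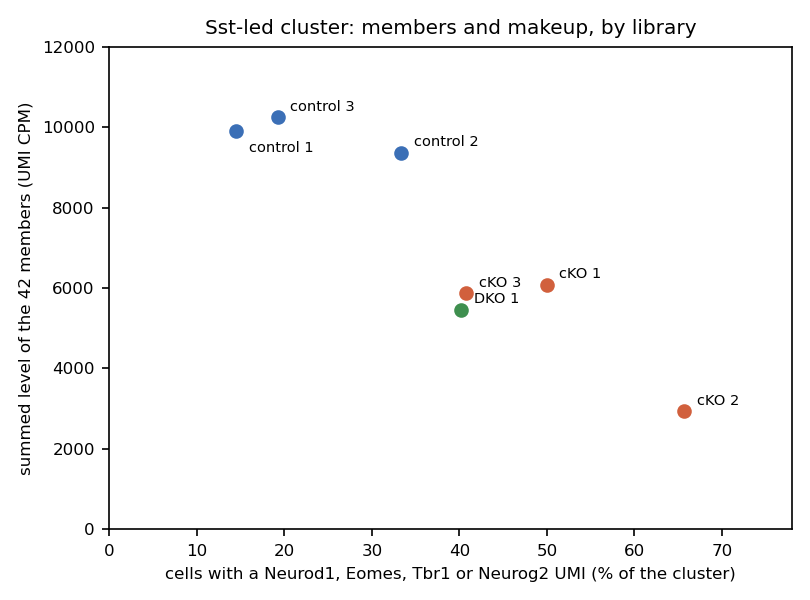
Summed level of the 42 genes in UMI CPM in the Sst-led cluster, against the percentage of its cells with a UMI of Neurod1, Eomes, Tbr1 or Neurog2 without thinning, with 1 point per library coloured by genotype. The 3 control libraries lie at 9368 to 10260 CPM and 14.5% to 33.3% of cells, and the 4 cKO and DKO libraries at 2930 to 6088 CPM and 40.2% to 65.7%.

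In the remaining 7 types 0 genes were called by edgeR. All genes called made up 0% in OPC-like, oligodendrocyte-like, endothelial-like, mural-like and microglia-like cells, 0.00971% in the Gpr17-led cluster and 0.172% in ependymal-like cells. At an unadjusted p under 0.05 there were 3 genes in ependymal-like cells (8.53% of all genes), 1 each in OPC-like (4.77%) and endothelial-like cells (2.06%) and 0 in the other 4 (1.84% to 3.93%). DESeq2 called 0, among 100 of all genes in ependymal-like cells and at most 3 in any other of these 7 types. Libraries failed to overlap for 4 of 39 genes in OPC-like cells (11.2% of all genes), for 1 of 34 in the Gpr17-led cluster (10.1%), 4 of 42 in oligodendrocyte-like cells (6.49%), 3 of 41 in ependymal-like cells (12.6%), 2 of 35 in endothelial-like cells (8.38%), 2 of 21 in mural-like cells (8.80%) and 1 of 26 in microglia-like cells (9.65%). Thus the types that lead for the neuroligins and for Syt11 showed no called change of them: in OPC-like cells Dlgap1, Dlg4, Syt4 and Cadm2 were lower in all cKO libraries, and in oligodendrocyte-like cells Vamp2, Nrxn2 and Syn1 were lower and Shank3, under 1 CPM, was higher.

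The DKO library was compared with control and with cKO libraries in the same fits, on the assumption that it varies like the other groups. Against control, 0 genes were called in any of the 13 types, 28 of 480 tests had an unadjusted p under 0.05 (3.44% to 8.57% of all genes by type) and DESeq2 called 1, Nrxn3 in astrocyte-like cells. Of the wider list 1 of 954 tests was called, Rab27b in astrocyte-like cells, which was 3.98 higher in DKO (SE 0.692, edgeR adjusted p = 0.02). Nrxn3 there was 2.95 higher on the log2 scale than in control (SE 0.47, edgeR adjusted p = 0.111) and differed by -0.22 from cKO (SE 0.50, adjusted p = 1.0). Of all genes, edgeR called against control 0.0343% in NSC-like, 0.157% in astrocyte-like, 0.0134% in TAP-like, 0.00729% in neuroblast-like and 0.00776% in neuron-like cells, and 0.0930% in the Sst-led cluster. The share was 0.0357% in OPC-like, 0.00971% in Gpr17-led, 0.0723% in oligodendrocyte-like, 0.00718% in ependymal-like, 0.0354% in endothelial-like, 0.0204% in mural-like and 0.0102% in microglia-like cells. In microglia-like cells, where equal replicate numbers deviated together, the fit with the replicate number as a block called 2 genes against control, Syt11 and Sv2a, among 278 of all genes (2.84%), and 1 against cKO, Syt11, among 128 (1.31%).

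Against cKO, 0 genes were called in any type, 12 of 480 tests had an unadjusted p under 0.05 (1.64% to 5.85% of all genes by type) and DESeq2 called 0. Of all genes, edgeR called 0.0274% in NSC-like, 0.0497% in astrocyte-like and 0.0134% in TAP-like cells, 0% in neuroblast-like, neuron-like and Gpr17-led cells, and 0.0116% in the Sst-led cluster. The share was 0.0179% in OPC-like, 0.0434% in oligodendrocyte-like, 0.0575% in ependymal-like, 0.0442% in endothelial-like, 0.0204% in mural-like and 0.0307% in microglia-like cells. With 1 DKO library, a difference well above its SE could go uncalled, as that of Nrxn3 from control in astrocyte-like cells did. The 0 calls thus do not show that DKO mice equal either group.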

How the data were processed

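Libraries of 10x Genomics 3′ v3.1 chemistry were analysed. The authors deposited raw counts: per the file headers Cell Ranger 6.0.1 (control 1 and 2, cKO 1 and 2) or 6.1.1 (control 3, cKO 3, DKO) counted each UMI once per gene and barcode (mm10), without normalization, while the submitters' processing notes name 6.1.1 alone. Barcodes under 500 or over 7000 detected genes, or over 10% mitochondrial UMIs, were dropped. They were integrated in Seurat 5.3.0 (R 4.3.3; 2000 features without the 42 genes and the wider list, 30 dimensions, resolution 0.15), which gave 16 clusters. To be named, a cluster needed 3 or more markers present in 10% of its cells and higher by 1 on the log2 scale. The mean rise of that marker list also had to reach 1 and lead any other passing list by 1. Clusters of low depth relative to their libraries were not named, and the OPC name also needed Pdgfra. The Sst-led cluster passed 3 of 6 neuroblast markers, but their list had a mean rise of 0.36. Scrublet in scanpy 1.11.5 marked 2.41% of cells as doublets, which were kept. Its automatic threshold failed in control library 1, where the median of the others was used.

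Counts were summed per library and type (at least 10 cells) and fitted over all 7 libraries with edgeR 4.0.16 (expression filter, TMM, robust quasi-likelihood test, Benjamini-Hochberg over all genes of a type). Alternatives included DESeq2 1.42.0. The tests were tried on simulated data. Libraries of 1 group differed in their gene totals by a chi-square per degree of freedom of 58.2 to 214.5, so each was counted as a sample of its own. Replicate numbers of the labels name no shared origin. All 3 same-numbered pairs correlated above 0.1 in endothelial-like (0.256, 0.113 and 0.464) and microglia-like cells (0.316, 0.104 and 0.212), and there the block value is given where it moves a call. The members and gene lists were chosen with earlier results of these data known. Named for the genotype comparison are each called gene and, in NSC-, astrocyte-, TAP-, neuroblast- and neuron-like cells, the 5 genes of largest change among those with no overlap; genes named for the Sst-led cluster and for alternatives were chosen after their values were seen. The 3 unnamed clusters left out held 6209 cells. A result of the wider list in ependymal-like cells is not reported here. Intervals over libraries cover pools of mice, and depth sets the error of genes under 10 CPM.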

Additional observations from a re-analysis of the deposited data

Results flagged for a closer look

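Cntnap2 differed in opposite directions in 2 cell types. In NSC-like cells all 3 cKO libraries lay below the control libraries, with a log2 change of -1.04, and in neuroblast-like cells all 3 lay above them, with a change of 1.42. There cKO library 1 stood at 4.08 CPM and the highest control library at 4.07, and the change was 0.86 without cKO library 3 and 1.81 without cKO library 1. Neither passed the test (edgeR adjusted p = 0.165 and 0.442), and the difference between the types was not tested. The neuron marker sum in neuroblast-like cells was 107.1 to 262.4 CPM in control and 120.8 to 512.1 in cKO libraries, and its part in the second value was not tested.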

How the results depend on the processing

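The 57 counts checked were of called genes or of genes without overlap between cell types. Under each alternative run, 35 stayed at 0 or within a set ratio of the main count, and 22 moved further under at least 1. Counts within that ratio could still differ. Between OPC-like and oligodendrocyte-like cells, 26 of 40 showed no overlap without cells holding neuron marker UMIs (31.4% of all genes), against 33 (55.8%). For members, cKO against control, edgeR called 0 in NSC-like cells but 4 with DESeq2, 1 with library totals, 3 without the low-count filter, 3 with the replicate block and 0 to 7 when 1 library was left out. In astrocyte-like cells the 1 call became 2 without the filter, 2 with the replicate block, 2 with the Cell Ranger version as a block, 0 in version 6.0.1 libraries, 0 without cells holding neuron marker UMIs and 0 to 3 with 1 library left out. TAP-like cells had 1 with DESeq2, 2 without the filter and 0 to 4 with 1 library left out, neuroblast-like cells 3 without the filter and 0 to 5, and mural-like cells 1 without the filter, 1 in version 6.0.1 libraries and 0 to 1. The Sst-led cluster had 3 with DESeq2, 1 with library totals, 15 without the filter, 15 with the replicate block, 1 with the version block, 16 at 5% mitochondrial counts and 0 to 1 with 1 library left out. Calls over all genes moved too: from 0 to 541 (DESeq2), 151 (library totals), 534 (no filter) and 633 (replicate block) in NSC-like cells, from 155 to 198, 169, 442 and 508 in astrocyte-like cells, from 0 to 118, 3, 242 and 108 in TAP-like cells, from 4 to 62, 7, 263 and 153 in neuroblast-like cells and from 102 to 129, 94, 766 and 632 in the Sst-led cluster. In mural-like cells they moved from 0 to 14 without the filter, 20 in version 6.0.1 libraries and 0 to 18 with 1 library left out. In astrocyte-like cells they were 210 with the version block, 27 in version 6.0.1 libraries and 86 without cells holding neuron marker UMIs. The Sst-led cluster had 121 with the version block and 781 at 5% mitochondrial counts.

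For the wider list, NSC-like cells had 9 (DESeq2), 1 (library totals), 6 (no filter), 8 (replicate block) and 0 to 13 (1 library left out) in place of 0, and astrocyte-like cells 5, 7 (no filter), 7 (block), 0 (version 6.0.1) and 0 to 8 in place of 3. TAP-like cells had 3 with DESeq2, 6 without the filter, 3 with the block and 0 to 5, neuroblast-like cells 3, 5, 1 and 0 to 7, and the Sst-led cluster 3, 23, 16 and 0 to 3, with 21 at 5% mitochondrial counts. In ependymal-like cells the 1 call became 2 with DESeq2, 4 without the filter, 3 with the replicate block, 2 with the version block and 0 to 4 with 1 library left out, and 0 with version 6.0.1 libraries, without the DKO library, at 5% mitochondrial counts, at resolution 0.3, without cells holding neuron marker UMIs and without shared barcodes. Calls over all genes in ependymal-like cells were 100 with DESeq2, 393 without the filter, 219 with the replicate block and 51 with the version block, against 24. With 1 library left out they were 0 to 359. In the order of the alternatives with 0 they were 0, 23, 15, 22, 7 and 24. Of the wider list, mural-like cells had 0 to 1 with 1 library left out.

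For DKO against control, the replicate block gave 1 in NSC-like, 3 in astrocyte-like, 1 in TAP-like and 5 in neuroblast-like cells. It called 2.09%, 4.04%, 3.05% and 2.25% of all genes there. In oligodendrocyte-like, ependymal-like and microglia-like cells it gave 2, 1 and 2 (1.87%, 3.03% and 2.84% of all genes). For the other alternatives of the DKO comparisons the shares of all genes are not given. Without the filter there were 1, 1 and 2 in astrocyte-, TAP- and neuroblast-like cells, in astrocyte-like cells 1 with DESeq2 and 1 at 5% mitochondrial counts, and 0 to 1 in astrocyte- and neuroblast-like cells with 1 library left out. Against cKO the block gave 1 in microglia-like cells, and leaving out 1 library 0 to 1 in NSC-like cells. The change of Lrrtm1 in NSC-like cells reversed, from 0.44 to -0.14, without cells holding neuron marker UMIs. The causes were not tested. All types come from the same 7 libraries, whose labels share only a replicate number. The limit of 0.1 for all 3 pairs was passed narrowly in endothelial-like and microglia-like cells (lowest 0.113 and 0.104). It was narrowly missed in oligodendrocyte-like (0.511, 0.0854 and 0.455) and ependymal-like cells (0.411, 0.0936 and 0.413). Outside the types that passed it, the block was an alternative only. Leaving out shared barcodes and the cells with glutamatergic factors were chosen after seeing the data. Depth limits genes under 10 CPM, and 1 DKO library limits every DKO value.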
